A study of Canis lupus familiaris with 12 samples.

Results

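The heat shock protein genes HSPA1A, HSPA4 and HSPB1, were followed in a dog oral melanoma cell line exposed to nonsteroidal anti-inflammatory drugs. Every probe whose transcript accession belongs to one of these genes was taken, whatever its values, which gave 7 of the 43603 distinct probes on the array: 4 for HSPA1A, 2 for HSPA4 and 1 for HSPB1. All 7 were well above background on all 12 arrays and were among the 31996 probes tested. None was saturated or flagged on any array (0 spots). The gene table used for names lists the HSPA1A transcript under the symbol HSP70, with HSPA1 as a synonym. Mammalian genomes carry near-identical copies of the inducible HSP70 gene, so signal from a copy could not be told apart from that of HSPA1A here.

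The cells were Mi/CMM1, a line established from an oral melanoma of a dog, and the arrays were Agilent one-colour (Cy3) expression arrays. There were 3 arrays each of cells given piroxicam, carprofen or robenacoxib, and 3 of untreated control cells, for which no vehicle is named. Each drug was used at its 50% inhibitory concentration, but the labels conflict on dose and time. Exposure was 6 h at 116 µM piroxicam, 779 µM carprofen or 156 µM robenacoxib according to the sample labels and design text. The protocol field swaps the piroxicam and carprofen doses (779 µM and 116 µM) and puts the harvest at 24 h. The drugs were thus not dose-matched in either version. All groups are of 1 cell line, and the design text calls the replicates biological without saying how cultures were separated.

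Heat shock proteins are molecular chaperones that help other proteins fold and keep damaged ones from aggregating. HSPA1A is the stress-inducible cytosolic HSP70, whose transcription is switched on by heat shock factor 1 when unfolded proteins build up, and in human cells its transcript is a common readout of proteotoxic stress. HSPA4, also called APG-2, is a member of the HSP110 family that acts as a nucleotide exchange factor for HSP70, and HSPB1, or HSP27, is a small heat shock protein that holds unfolding clients without using ATP.

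The arrays lay on 3 slides, and each slide was scanned as a unit. The array of piroxicam 3 shared slide 3 with all 3 robenacoxib arrays, piroxicam 1 and 2 shared slide 2 with carprofen 2 and 3, and carprofen 1 was on slide 1 beside all 3 controls. Control therefore shared no slide with piroxicam or robenacoxib. Between 66.2% and 80% of spots were well above background. Pearson correlations between arrays over all tested probes ran from 0.9946 to 0.9982 within groups and from 0.9901 to 0.9975 between groups. Of 10 melanocyte markers 4 had a named probe: MITF was well above background on 12 arrays, MC1R on 8, KIT on 4 and TYR, the key enzyme of pigment synthesis, on 0. Of 6 fibroblast markers 4 had a named probe and of 7 leukocyte markers 3 had one, and all of these were well above background on 12 arrays. Of 4 endothelial markers 2 had a named probe, with VWF well above background on 12 arrays and KDR on 0. Of the 4 fibroblast markers, 1 was called higher and 2 lower with piroxicam against control (PDGFRB 0.51, DCN -0.42 and COL1A2 -0.10 on the log2 scale), 2 were lower with carprofen (COL1A1 -0.18 and COL1A2 -0.16) and 2 with robenacoxib (DCN -0.35 and COL1A1 -0.12), in limma. Of the other markers MITF (-0.12) and the leukocyte marker CD86 (-0.23) were called lower with carprofen. Of all tested probes, 12.1% were called higher and 15.7% lower with piroxicam. With carprofen 19.3% of them were called lower, and with robenacoxib 12.6%. DCN was read from a dim probe, with a mean control level of -5.26 on the scale defined below, where that of COL1A2 was 6.00. The mean control levels of CD8A, CD4, PDGFRB and CD86 were also low, at -5.11, -4.07, -3.30 and -3.02. No marker on the epithelial list had a named probe. The part of these markers in the results was not tested.

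HSPA1A was higher with piroxicam and with carprofen on all 4 of its probes. Levels are given as log2 signal relative to the 75th percentile of the same array, and each probe is read on its own, since levels of different probes are not comparable. On probe A_11_P055186, the brightest, the level was 3.24, 3.22 and 3.24 with piroxicam, 3.31, 3.27 and 3.24 with carprofen, 3.00, 2.91 and 2.98 with robenacoxib and 2.79, 2.88 and 2.90 in control. The piroxicam and carprofen arrays overlapped each other and lay above every robenacoxib array, and all 3 robenacoxib arrays lay above the controls. On probe A_11_P055021 the level was 3.09, 3.15 and 3.15 with piroxicam, 3.19, 3.07 and 3.10 with carprofen, 2.71, 2.76 and 2.80 with robenacoxib and 2.72, 2.72 and 2.66 in control. Here robenacoxib overlapped control. Probe A_11_P055026 gave 2.83, 2.81 and 2.86 with piroxicam, 2.74, 2.77 and 2.87 with carprofen, 2.52, 2.49 and 2.49 with robenacoxib and 2.25, 2.30 and 2.33 in control. Probe A_11_P209683, the dimmest, gave 0.39, 0.31 and 0.50 with piroxicam, 0.30, 0.33 and 0.32 with carprofen, 0.14, 0.11 and 0.06 with robenacoxib and -0.14, -0.11 and 0.01 in control. On both of these probes robenacoxib lay between the other drugs and control, with no overlap on either side. How many of all tested probes keep groups apart in this way was not counted.

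**Figure D1:**
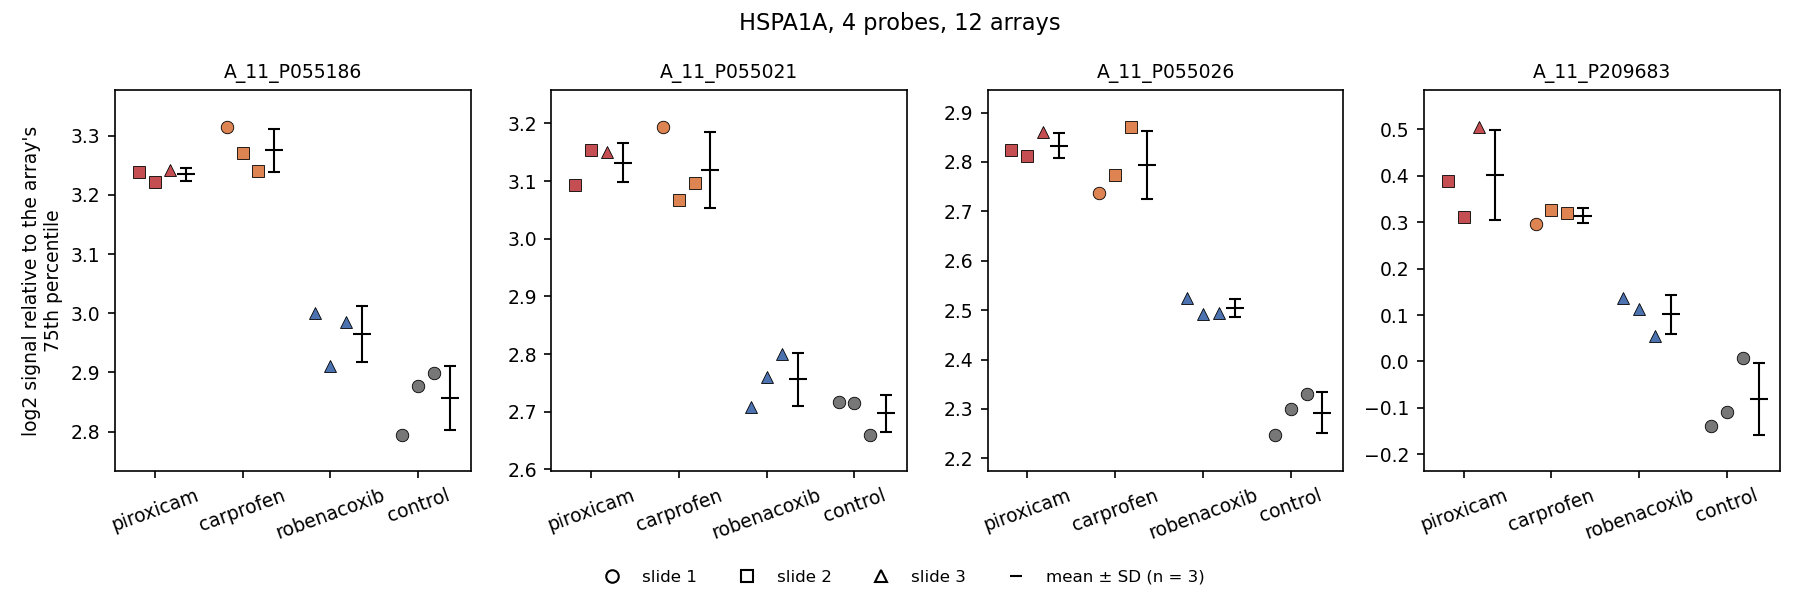
HSPA1A level (log2 signal minus the array's 75th percentile) on each of 12 arrays, 1 panel per probe, with the slide as the marker shape and mean ± SD of the 3 arrays beside each group. The piroxicam and carprofen arrays overlap and lie above all robenacoxib and control arrays on all 4 probes, and robenacoxib overlaps control on A_11_P055021 only.

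Against control, piroxicam raised HSPA1A by 0.38 (SE 0.04), 0.43 (SE 0.04), 0.54 (SE 0.04) and 0.48 (SE 0.05) on the log2 scale on probes A_11_P055186, A_11_P055021, A_11_P055026 and A_11_P209683, which is 1.30-fold to 1.45-fold. The adjusted p-values of limma's moderated test, Benjamini-Hochberg over all tested probes, ran from 2.4e-05 to 0.000238. Carprofen raised the same probes by 0.42, 0.42, 0.50 and 0.39 (adjusted p from 2.2e-05 to 0.000605 in limma), or 1.31-fold to 1.41-fold. With a threshold of 0.05, 4 of 4 HSPA1A probes were called higher with each of these drugs, where 12.1% of all tested probes were called higher with piroxicam and 13.4% with carprofen. Both drugs were set against the same 3 controls. Between 5.94% and 12.3% of tested probes had a larger absolute change with piroxicam, and between 5.7% and 10% with carprofen.

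Robenacoxib gave a smaller difference that depended on the probe. HSPA1A was called higher on A_11_P055026 by 0.21 (SE 0.04, limma adjusted p = 0.00402) and on A_11_P209683 by 0.18 (SE 0.05, limma adjusted p = 0.0363), where 9.6% of all tested probes were called higher. The change was 0.11 on A_11_P055186 (limma adjusted p = 0.0588) and 0.06 on A_11_P055021 (limma adjusted p = 0.334), which did not pass. The call on A_11_P209683 was lost on leaving out any of 8 single arrays (control 1 or 2, piroxicam 1, carprofen 2 or 3, or any robenacoxib array). It was also lost with both normexp settings, the authors' values, no filter on dim probes, the 2 groups alone and slide or replicate number as a block.

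The differences between the drugs were tested directly. Robenacoxib gave lower HSPA1A than piroxicam on 4 of 4 probes, by -0.27 to -0.38 (limma adjusted p from 0.000147 to 0.00271), where 13.4% of all tested probes were called lower. On A_11_P055186 that call was lost with normexp and the 75th percentile (-0.19, limma adjusted p = 0.0794), with normexp and quantile normalization (-0.17, limma adjusted p = 0.073) and in the authors' values (-0.16, limma adjusted p = 0.0888). Robenacoxib also gave lower HSPA1A than carprofen on 4 of 4 probes, by -0.21 to -0.36 (limma adjusted p from 0.00125 to 0.0411), where 3.76% of all tested probes were called lower. With the 2 groups alone 0 of these 4 calls remained, and with normexp and the 75th percentile only that on A_11_P055021 did. Those settings called 0.725% and 0.666% of all tested probes in either direction, where 8.11% were called as reported. On A_11_P209683 the call was lost in 7 of 11 alternatives and on leaving out any of 9 single arrays (control 1 or 2, piroxicam 1, or any carprofen or robenacoxib array). Carprofen and piroxicam were not separated on any HSPA1A probe (0 of 4 called, where 37.5% of all tested probes were called in either direction). Their differences were 0.04 (95% interval -0.04 to 0.12) on A_11_P055186, -0.01 (-0.10 to 0.08) on A_11_P055021, -0.04 (-0.12 to 0.04) on A_11_P055026 and -0.09 (-0.21 to 0.03) on A_11_P209683. The intervals all include 0 and reach -0.21 at the widest, which does not show that the drugs act alike. With spike-in scaling 2 of 4 were called higher with carprofen (0.08 to 0.21 over the 4 probes). In that setting the median of all tested probes was 0.18, and 45.9% of them were called in either direction.

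With slide as a block, the HSPA1A changes against control were 0.40 to 0.54 with piroxicam (limma adjusted p from 0.00907 to 0.0423) and 0.38 to 0.50 with carprofen (limma adjusted p from 0.00131 to 0.00989), all called. The block estimate of every drug against control reaches the controls through the single array carprofen 1. Within slide 1, carprofen 1 against the 3 controls gave the same 0.38 to 0.50, not called (limma adjusted p from 0.0636 to 0.101), in a fit that called 1 of all tested probes. For robenacoxib the block left changes of 0.00 to 0.15, none called, and the order of the probes differed: A_11_P209683 was at 0.00 and A_11_P055186 at 0.15. Of all tested probes, the fit with the block called 5.09% with piroxicam, 16.4% with carprofen and 1.39% with robenacoxib against control. Robenacoxib against piroxicam stayed called on 4 of 4 HSPA1A probes with the block (-0.28 to -0.40); within slide 3, against piroxicam 3 alone, it was -0.28 to -0.40 and not called (limma adjusted p from 0.0845 to 0.128), in a fit that called 0 of all tested probes. Robenacoxib against carprofen, which share no slide, was -0.30 to -0.38 with the block and not called (limma adjusted p from 0.0895 to 0.147). Within slide 2 the difference between carprofen and piroxicam was -0.04 to 0.03 on the HSPA1A probes.

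**Figure D2:**
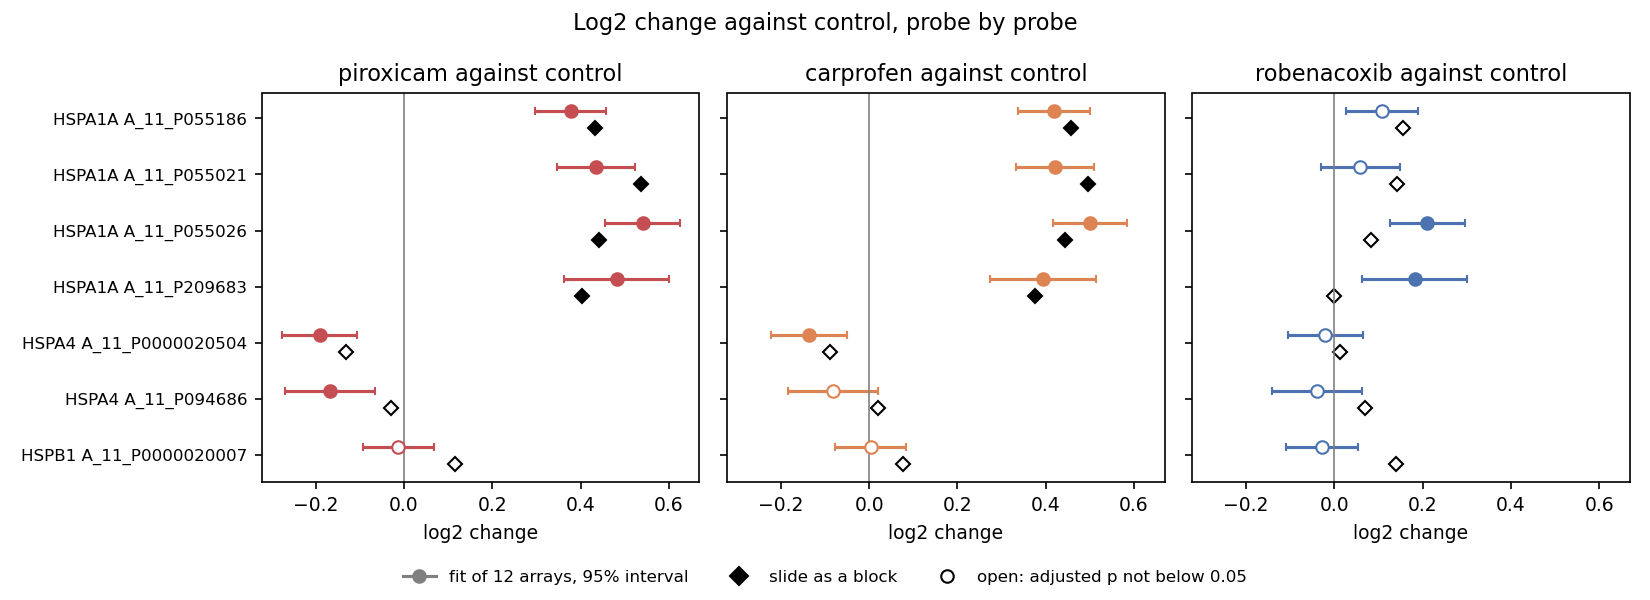
Log2 change of each drug against control for the 7 probes, with the 95% interval of the fit of 12 arrays (circles) and the estimate with slide as a block (diamonds). Filled symbols have an adjusted p below 0.05: HSPA1A is filled in both fits for piroxicam and carprofen, while HSPA4 is filled only without the block.

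HSPA4 was lower with piroxicam, by a smaller amount than HSPA1A was higher. On probe A_11_P0000020504 the level was 5.34, 5.33 and 5.37 with piroxicam, 5.45, 5.43 and 5.33 with carprofen, 5.56, 5.53 and 5.47 with robenacoxib and 5.58, 5.51 and 5.52 in control. All piroxicam and all carprofen arrays lay below the controls, and robenacoxib overlapped control. On probe A_11_P094686 the level was 4.60, 4.57 and 4.63 with piroxicam, 4.79, 4.59 and 4.68 with carprofen, 4.71, 4.71 and 4.76 with robenacoxib and 4.80, 4.73 and 4.77 in control. Piroxicam again lay below every control array, whereas carprofen 1, on the slide of the controls, lay among them.

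Against control, HSPA4 fell by 0.19 (SE 0.04, limma adjusted p = 0.0055) and by 0.17 (SE 0.05, limma adjusted p = 0.0229) with piroxicam on A_11_P0000020504 and A_11_P094686, so 2 of 2 probes were called lower, where 15.7% of all tested probes were called lower. On A_11_P094686 that call held in 5 of 11 alternatives: it was lost with both normexp settings (-0.12 and -0.08), the authors' values (-0.07), spike-in scaling, the slide block, and without control 3 and piroxicam 3. On A_11_P0000020504 it held in 8 of 11, and was lost with quantile normalization (-0.12), spike-in scaling and the slide block. Between 33.1% and 38.3% of tested probes had a larger absolute change. With carprofen the changes were -0.14 (SE 0.04, limma adjusted p = 0.0219) and -0.08 (SE 0.05, limma adjusted p = 0.203), so 1 of 2 was called lower, where 19.3% of all tested probes were called lower. With robenacoxib they were -0.02 and -0.04, neither called, where 12.6% of all tested probes were called lower. Robenacoxib against piroxicam gave 0.17 (limma adjusted p = 0.00891) and 0.13 (limma adjusted p = 0.0665), so 1 of 2 was called higher, where 13.7% of all tested probes were called higher; with slide as a block these were 0.15 and 0.10 and 0 of 2 was called (limma adjusted p = 0.0996 and 0.182). Robenacoxib against carprofen gave 0.12 and 0.04, with 0 of 2 called, where 4.35% of all tested probes were called higher, and carprofen against piroxicam gave 0.05 and 0.09, with 0 of 2 called, where 18.5% were called higher and 19% lower. The HSPA4 call with carprofen held in 3 of 12 alternatives. It was lost with both normexp settings (-0.19 and -0.06), quantile normalization (-0.01), the authors' values (-0.05), the 2 groups alone, and within slide 1, and turned to a call of higher with spike-in scaling (0.21). It was also lost without control 1 (-0.12), without carprofen 3 (-0.10) and without control 3 and piroxicam 3 (-0.14). With slide as a block no HSPA4 probe was called for any drug against control (piroxicam -0.13 and -0.03, carprofen -0.09 and 0.02). On A_11_P094686 the call with piroxicam was lost on leaving out control 1, control 3, piroxicam 1 or piroxicam 2 (-0.15 to -0.17).

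HSPB1 did not separate the groups. Probe A_11_P0000020007 gave 3.55, 3.56 and 3.50 with piroxicam, 3.62, 3.54 and 3.48 with carprofen, 3.54, 3.53 and 3.49 with robenacoxib and 3.54, 3.56 and 3.54 in control. Every group overlapped every other, and the lowest and the highest array both had carprofen. The changes against control were -0.01 (95% interval -0.09 to 0.07) with piroxicam, 0.00 (-0.08 to 0.08) with carprofen and -0.03 (-0.11 to 0.05) with robenacoxib, and 0 of the 6 comparisons was called (limma adjusted p from 0.642 to 0.955 against control). Of all tested probes, 27.8% with piroxicam, 32.7% with carprofen and 22.2% with robenacoxib were called against control in either direction, 27.1% for robenacoxib against piroxicam and 8.11% for robenacoxib against carprofen. After normexp background correction, HSPB1 was called lower with piroxicam, by -0.25 with the 75th percentile (limma adjusted p = 0.0372) and -0.22 with quantile normalization (limma adjusted p = 0.0342), and by -0.22 in the authors' deposited values (limma adjusted p = 0.0432).

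**Figure D3:**
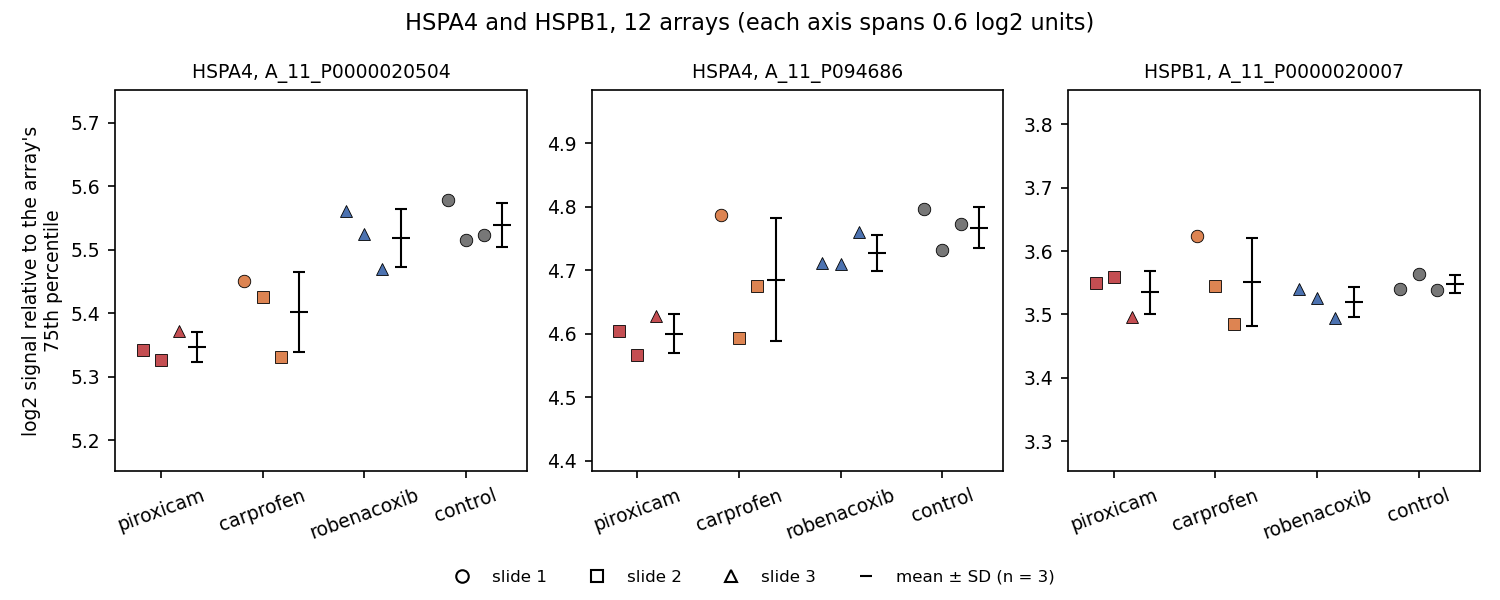
Levels of the 2 HSPA4 probes and the HSPB1 probe (log2 signal minus the array's 75th percentile) on each of 12 arrays, with the slide as the marker shape and mean ± SD of 3 arrays beside each group. Each axis spans the same range of log2 units: the piroxicam arrays lie below the controls on both HSPA4 probes, and all groups overlap on HSPB1.

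Against control, HSPA1A kept its direction under every scaling tried, while HSPB1 and HSPA4 did not, except that HSPA4 on A_11_P0000020504 stayed below 0 with piroxicam. Before any scaling between arrays, HSPA1A on A_11_P055186 had a processed signal of 21324 to 22227 with piroxicam, 21411 to 24144 with carprofen, 17123 to 17793 with robenacoxib and 14903 to 15542 in control. The ratio of group means to control was 1.42, 1.48 and 1.14 for these drugs. HSPA4 on A_11_P0000020504 had 91691 to 97325 with piroxicam, 91117 to 107530 with carprofen, 99597 to 104922 with robenacoxib and 95817 to 102602 in control, with ratios of 0.958, 1.01 and 1.04. On this scale each drug group overlapped control. HSPB1 had 26508 to 27020 with piroxicam, 25351 to 29184 with carprofen, 25335 to 26230 with robenacoxib and 24217 to 24995 in control. Its ratios were 1.08, 1.11 and 1.04, and every drug-treated array lay above every control array. The same held for the 75th percentile of the whole array. On the log2 scale it was 11.09 to 11.29 on drug-treated arrays and 11.03 to 11.07 on controls, so this order is not particular to HSPB1.

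**Figure D4:**
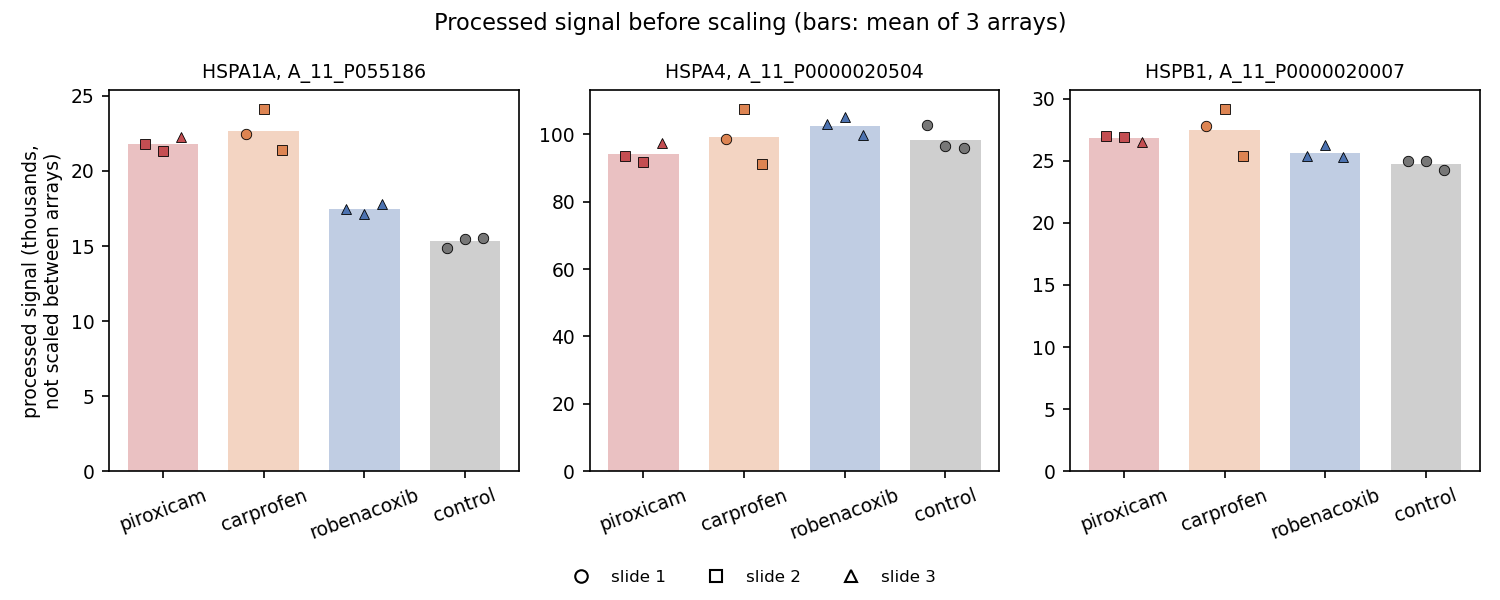
Processed signal, with no scaling between arrays, of 1 probe of each gene on each of 12 arrays (points, slide as marker shape) with the mean of 3 arrays as bars that start at 0. HSPA1A separates piroxicam and carprofen from robenacoxib and control, and each drug group overlaps control for HSPA4. Every drug-treated array exceeds the controls for HSPB1.

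Scaling to the 8 spiked-in transcripts, which are added to the RNA at labelling, moved the median of all tested probes to 0.15 with piroxicam, 0.32 with carprofen and 0.27 with robenacoxib, where they were -0.02, -0.02 and -0.03 with the 75th percentile. Of all tested probes, 43%, 75.5% and 68.2% were then called with piroxicam, carprofen and robenacoxib in either direction. These shares were 27.8%, 32.7% and 22.2% with the 75th percentile. Of all probes called, 93.1%, 99.7% and 99.3% were higher with spike-in scaling, where the shares were 43.6%, 40.9% and 43.2% with the 75th percentile. Under this scaling HSPA1A was higher by 0.55 to 0.71 with piroxicam, 0.74 to 0.84 with carprofen and 0.36 to 0.51 with robenacoxib, all called, and these values lie above the shifted medians. HSPA4 was at -0.02 and 0.01 with piroxicam and was called higher with carprofen (0.21 and 0.26) and robenacoxib (0.28 and 0.26). HSPB1 was called higher with all 3 drugs (0.16, 0.35 and 0.27). The lower HSPA4 given above is therefore lower relative to the rest of the array.

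**Figure D5:**
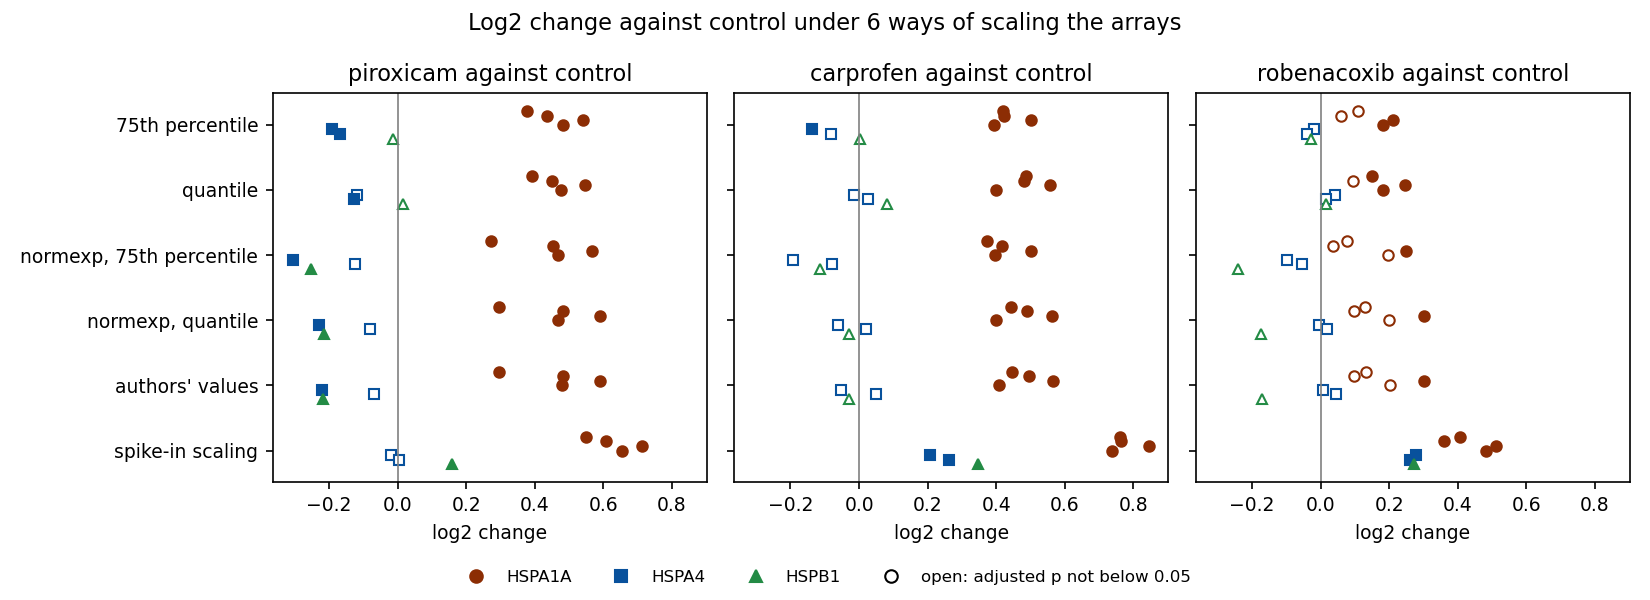
Log2 change against control of the 7 probes under 6 ways of scaling, with filled symbols for an adjusted p below 0.05. HSPA1A stays to the right of 0 and filled with piroxicam and carprofen in every row, while HSPB1 and at least 1 HSPA4 probe change sign between rows with each drug.

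Over the 12 arrays the 4 HSPA1A probes followed each other, with Pearson r from 0.88 to 0.97 over 6 pairs of probes. The 2 HSPA4 probes had r = 0.76. HSPA1A against HSPA4 ran from -0.89 to -0.62, and HSPB1 had -0.09 to 0.15 with HSPA1A and 0.16 to 0.17 with HSPA4. These values are descriptions over 12 arrays that share groups, slides and scaling.

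Few other genes of the heat shock network could be named. Of 111 listed genes (heat shock factors, HSP70, HSP90, small heat shock, J-domain and other chaperone families), 6 had a named probe and all 6 were tested: CANX, CRYAA, HSF4, HSP90B1, HSPB8 and PFDN6. Each gene was read from its brightest probe. With piroxicam and with robenacoxib 0 of 6 passed in limma, and with carprofen 2 of 6 were lower and 0 higher. Of all tested probes, 27.8% with piroxicam, 22.2% with robenacoxib and 32.7% with carprofen were called in either direction, and 19.3% were called lower with carprofen. The median change of the 6 was -0.03, 0.01 and 0.00 with piroxicam, carprofen and robenacoxib, beside -0.02, -0.02 and -0.03 over all tested probes. Over all 8 tested probes of these genes, 1 was higher with piroxicam, 4 were lower with carprofen and 0 were called with robenacoxib in limma. CANX, or calnexin, a chaperone of the endoplasmic reticulum, was not called on the probe read, while its other probe was higher by 0.13 with piroxicam (limma adjusted p = 0.0163) and lower with carprofen (-0.10, limma adjusted p = 0.0423). HSP90B1, the HSP90 of the endoplasmic reticulum, had levels of 5.98, 5.90 and 5.88 with carprofen and 6.05, 6.06 and 6.05 in control, without overlap. It fell by 0.13 with carprofen (SE 0.03, limma adjusted p = 0.00911), and its other probe fell by 0.12 (limma adjusted p = 0.0283). PFDN6, a subunit of the prefoldin cochaperone, had levels of 2.58, 2.56 and 2.50 with carprofen and 2.70, 2.79 and 2.71 in control, and fell by 0.19 (limma adjusted p = 0.00996). Neither was called with slide as a block (-0.07 and -0.16), where 16.4% of all tested probes were called with carprofen. With spike-in scaling both were above control (0.21 and 0.16) but below the median of all tested probes with carprofen (0.32). HSF4, a heat shock factor, changed by 0.13, 0.04 and 0.03 with piroxicam, carprofen and robenacoxib, with no call.

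Among 610 other named genes with a tested probe, the level over the 12 arrays that was most like HSPA1A (A_11_P055186) was that of CD40LG, the ligand of CD40 (Pearson r = 0.85), followed by BIRC3, an inhibitor of apoptosis (0.84), CYP4A11 (0.81), NPC1L1 (0.80) and VEGFA, the angiogenic growth factor (0.79). The least like were TJP1, a tight junction scaffold (-0.93), and GUSB, a lysosomal enzyme (-0.89). VEGFA averaged 3.85 ± 0.05 with piroxicam, 3.57 ± 0.05 with carprofen, 3.40 ± 0.04 with robenacoxib and 3.32 ± 0.03 in control (SD, n = 3 each). TJP1 averaged 2.24 ± 0.02, 2.28 ± 0.02, 2.38 ± 0.02 and 2.42 ± 0.00 in the same order of groups. Across 4 other settings the r with HSPA1A ran from -0.93 to -0.22 for GUSB, from -0.92 to -0.52 for TJP1 and from 0.53 to 0.83 for BIRC3, while that of CD40LG stayed between 0.74 and 0.87. The r of CYP4A11 ran from 0.59 to 0.89, that of NPC1L1 from 0.57 to 0.83 and that of VEGFA from 0.66 to 0.82. CYP4A11 was read from a dim probe, with a mean control level of -4.57.

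HSPA4 (A_11_P0000020504) was most like SRP72 (r = 0.93), a protein of the signal recognition particle, then TJP1 (0.90), SRP68 of the same particle (0.90), RAB11A (0.85) and RAB4B (0.84), and least like VEGFA (-0.91) and the chemokine receptor CCR4 (-0.85). The value for SRP68 ran from 0.17 to 0.91 across 4 other settings, and that for RAB4B from 0.57 to 0.84. CCR4 was read from a dim probe, with a mean control level of -4.04. SRP72 averaged 4.20 ± 0.02 with piroxicam, 4.24 ± 0.05 with carprofen, 4.34 ± 0.06 with robenacoxib and 4.37 ± 0.04 in control (SD, n = 3 each). HSPB1, which hardly varied, was most like NFKB1 (0.77), PDE6B (0.72), CYGB (0.70), SLC1A3 (0.66) and KCNMA1 (0.65), and least like NCAM1 (-0.90) and DLD (-0.79). Across those settings KCNMA1 ran from -0.10 to 0.58, SLC1A3 from 0.20 to 0.68, PDE6B from 0.36 to 0.71, NCAM1 from -0.92 to -0.30 and DLD from -0.81 to -0.30. PDE6B, CYGB, SLC1A3 and KCNMA1 were highest, and NCAM1 and DLD lowest, on the array of carprofen 1, where HSPB1 was also highest. Without that array the r with HSPB1 was 0.40 for PDE6B, 0.13 for CYGB, 0.32 for SLC1A3, 0.46 for KCNMA1, -0.57 for DLD and -0.80 for NCAM1. PDE6B, CYGB, SLC1A3, KCNMA1 and NCAM1 were read from dim probes, with mean levels in control of -6.77, -6.18, -5.75, -7.27 and -6.63. The control means of HSPB1, NFKB1 and DLD were 3.55, 2.12 and 3.39. The likeness of those dim probes to HSPB1 therefore rests on weak signals. NFKB1 stayed between 0.69 and 0.80 over the 12 ways of leaving out 1 array. Across the 4 other settings it ran from 0.55 to 0.85, and CYGB from 0.55 to 0.75.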

How the data were processed

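Spot intensity comes from the deposited scanner files; per the file headers these were made by Feature Extraction 10.7.3.1, with background removed within each array and no scaling between arrays. The authors' deposited values, log2 as judged from the numbers and with column medians near 7.67, were produced using limma (3.24.15 in the submitters' processing notes); how they corrected background and normalized is not given in the sources used here. Analysis used R 4.3.3, limma 3.58.1 and, at version 1.17.8, the data.table package. Control spots and outlier-flagged spots were left out, spots of a probe were averaged, and log2 processed signal was centred on the 75th percentile of its array. A probe was tested if some group had it well above background on each of its 3 arrays. Tests were made in 1 limma fit of 12 arrays (8 residual degrees of freedom), two-sided, Benjamini-Hochberg over 31996 probes, threshold 0.05. The fit was tested on simulated data, where it found part of the changes put in and missed others, mostly on probes with a large spread between arrays, so a probe that was not called may still differ. The number of arrays limits the precision, and if replicates are not separate cultures, p-values measure only the spread between these samples.

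Symbols were looked up by transcript accession in a RefSeq list for the dog assembly UU_Cfam_GSD_1.0 (no coordinates were used), giving 1313 probes one of 832 symbols. The network list, markers and members were chosen with earlier results of these data known. Named genes were all member probes, the list's called genes and a few fixed by name, and for each member the 5 genes most and 2 least correlated; HSF4 was added after its values were seen. Alternatives were normexp (offset 50) with 75th-percentile or quantile scaling, quantile normalization, spike-in scaling, the authors' values, other filters on dim probes, slide as a block or within slides, replicate number as a block, the 2 groups alone, and leaving out arrays; leaving out single arrays from the correlations was added after the data were seen. Normexp was run on the median signals because the files used here hold no mean signal, where the plan named the mean. Replicate numbers did not pair the arrays: 3 of 18 same-numbered pairs correlated above 0.1 (range -0.45 to 0.20).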

Additional observations from a re-analysis of the deposited data

How the results depend on the processing

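The HSPA1A calls with piroxicam held in all 11 alternatives and all 12 fits that leave out 1 array (0.27 to 0.71). Those with carprofen held in 11 of 12 alternatives and in all 12 such fits (0.36 to 0.84), and were lost within slide 1. A change of sign is counted below even where neither value was called.

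With spike-in scaling, HSPA4 on A_11_P094686 turned to 0.0051 with piroxicam, 0.26 with carprofen and 0.26 with robenacoxib, and A_11_P0000020504 to 0.21 with carprofen and 0.28 with robenacoxib. HSPB1 turned to 0.16 with piroxicam, 0.27 with robenacoxib, and 0.11 for robenacoxib against piroxicam. Carprofen against piroxicam on HSPA1A turned to 0.16 (A_11_P055021), 0.13 (A_11_P055026) and 0.083 (A_11_P209683), and HSPA4 for robenacoxib against carprofen to -0.0016.

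Uncalled values near 0 also changed sign. HSPA4 on A_11_P094686 with carprofen was 0.021 (normexp and quantile), 0.027 (quantile), 0.049 (authors' values) and 0.019 (slide block, within slide 1). With robenacoxib it was 0.018 (normexp and quantile), 0.016 (quantile), 0.045 (authors' values) and 0.070 (slide block), and for robenacoxib against carprofen -0.0026 (normexp and quantile), -0.011 (quantile), -0.0036 (authors' values) and -0.0035 (without carprofen 2, with 0.093 as the highest without 1 array). HSPA4 on A_11_P0000020504 with robenacoxib was 0.042 (quantile), 0.0062 (authors' values), 0.013 (slide block) and 0.0043 (without robenacoxib 3, with -0.041 as the lowest without 1 array). HSPB1 with piroxicam was 0.016 (quantile), 0.12 (slide block), 0.0068 (without piroxicam 3) and 0.0022 (without control 3 and piroxicam 3), and -0.025 to 0.0068 over the fits without 1 array. With carprofen it was -0.11 (normexp and the 75th percentile), -0.029 (normexp and quantile), -0.028 (authors' values), -8e-06 (without control 1), -0.0011 (without control 3, alone or with piroxicam 3) and -0.033 (without carprofen 1), the fits without 1 array reaching 0.037. With robenacoxib it was 0.016 (quantile) and 0.14 (slide block). HSPB1 for carprofen against piroxicam was -0.040 (slide block, within slide 2), -0.0034 (without piroxicam 3, alone or with control 3) and -0.021 (without carprofen 1, with 0.049 as the highest without 1 array). For robenacoxib against piroxicam it was 0.012 (normexp and the 75th percentile), 0.043 (normexp and quantile), 0.047 (authors' values) and 0.024 (slide block, within slide 3), and for robenacoxib against carprofen 0.064 (slide block) and 0.0054 (without carprofen 1, with -0.064 as the lowest without 1 array). HSPA1A for carprofen against piroxicam was 0.0095 (normexp and quantile), 0.030 (quantile), 0.014 (authors' values) and 0.012 (without carprofen 2, with -0.050 as the lowest without 1 array) on A_11_P055021, and 0.010 (quantile) and 0.0029 (slide block, within slide 2) on A_11_P055026. The likeness of KCNMA1 to HSPB1 turned to -0.089 (normexp and quantile) and -0.10 (authors' values). The cause was not tested.

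Counts of the 7 heat shock probes called moved as follows. Robenacoxib against control, 2 as reported, gave 7 with spike-in scaling, 0 with slide as a block, and 1 with both normexp settings, the authors' values, no filter on dim probes, and the 2 groups alone. Of all tested probes, 22.2% were called as reported, 68.2% with spike-in scaling, 1.39% with the slide block and 12.4% to 18.5% in the others. Carprofen against control, 5 as reported, gave 0 within slide 1. Carprofen against piroxicam, 0 as reported, gave 1 with quantile normalization and 5 with spike-in scaling, where 36.3% and 45.9% of all tested probes were called. Robenacoxib against piroxicam, 5 as reported, gave 0 within slide 3; robenacoxib against carprofen, 4 as reported, gave 1 with normexp and the 75th percentile, and 0 with slide as a block and the 2 groups alone. These settings called 0.666%, 0.256% and 0.725% of all tested probes for robenacoxib against carprofen, where 8.11% were called as reported. Of the 6 network genes, piroxicam (0 as reported) gave 1 with normexp and quantile, the authors' values and the 2 groups alone, and 3 with spike-in scaling. Carprofen (2) gave 1 with normexp and the 75th percentile, 6 with spike-in scaling, and 0 with both quantile settings, the authors' values, the slide block and within slide 1. Robenacoxib (0) gave 6 with spike-in scaling and 1 over probes well above background on all 12 arrays. Spike-in scaling called 43%, 75.5% and 68.2% of all tested probes with piroxicam, carprofen and robenacoxib. The other settings named for the network genes called 24.9% to 27% with piroxicam and 26.8% with robenacoxib. With carprofen they called 16.4% to 29.6%, apart from the fit within slide 1.

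Leaving out 1 array in turn gave 5 to 6 heat shock probes for piroxicam against control, 4 to 6 for carprofen against control, 1 to 2 for robenacoxib against control, 0 to 1 for carprofen against piroxicam, 5 to 6 for robenacoxib against piroxicam and 3 to 4 for robenacoxib against carprofen, and 0 to 1, 2 to 2 and 0 to 1 network genes for piroxicam, carprofen and robenacoxib. Robenacoxib against control fell to 1 without control 1, control 2, piroxicam 1, carprofen 2, carprofen 3, robenacoxib 1 or robenacoxib 3. Those fits called 14.5% to 21.8% of all tested probes for this comparison. With the replicate block, which the numbers do not warrant as a pairing, robenacoxib against control gave 1 heat shock probe and piroxicam against control 1 network gene, and HSPA1A rose by 0.38 to 0.54 with piroxicam. That fit called 17.2% of all tested probes with robenacoxib and 23.3% with piroxicam.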
